A study of Mus musculus with 99 samples.

Results

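Branched-chain amino acid catabolism was followed through 8 genes taken as a list by name: Bcat2, Bckdha, Bckdhb, Dbt, Bckdk, Ivd, Pcca and Pccb. Of these, 7 were named on the array, each by 1 probe set, and all 7 passed the filter on low values. No probe set was named Ivd here, so Ivd (isovaleryl-CoA dehydrogenase, the next step of leucine breakdown) has no value. The array named 11725 genes in all through 17783 probe sets.

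The study profiled heart RNA of untreated male mice on a chow diet, with 1 array for each of 99 inbred strains, to map the genetics of heart expression. The groups were 28 classical inbred strains, 30 BXD arrays, 15 AXB arrays, 13 BXA arrays and 11 BXH arrays, with single arrays of CAST/EiJ and of B6cC3-1/KccJ. BXD strains descend from C57BL/6J and DBA/2J, AXB and BXA from A/J and C57BL/6J in reciprocal crosses, and BXH from C57BL/6J and C3H/HeJ. The protocol gives an age of 16 weeks, but a separate age label rises along the sample order, from 16 to 50 weeks in BXH, 22 to 55 in the classical strains, 56 to 109 in BXD and 58 to 113 in AXB and BXA. If that label were true, age and panel could not be told apart between BXH and the other panels. All 4 parents were among the classical strains. The strains BXD29-Tlr4<lps-2J>/J and BXD24/TyJ-Cep290<rd16>/J carry the Tlr4 and Cep290 alleles that their names give. The name of the classical strain BTBR T<+> tf/J also gives alleles, T<+> and tf. AXB19/PgnJ, AXB19a/PgnJ and AXB19b/PgnJ were averaged as near-isogenic strains, as were BXD24/TyJ and its Cep290 derivative, which left 29 BXD families and 26 AXB and BXA families. A strain was thus represented by 1 heart sample, and every spread below is a spread between strains, in which strain and individual sample cannot be told apart. The labels do not say which part of the heart was taken or whether animals were pooled.

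Leucine, isoleucine and valine are broken down in mitochondria. Bcat2 encodes the mitochondrial aminotransferase that removes their amino group and yields branched-chain ketoacids, and heart and skeletal muscle are rich in this enzyme. The ketoacids are then oxidised by the branched-chain ketoacid dehydrogenase complex, whose catalytic subunits are encoded by Bckdha, Bckdhb and Dbt and whose inhibitory kinase is encoded by Bckdk. Pcca and Pccb encode the subunits of propionyl-CoA carboxylase, which handles the propionyl-CoA that isoleucine and valine give.

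Values are log2 expression levels, so a difference of 1 is a doubling. Array medians lay between 3.97 and 4.07, and the 6 named cardiomyocyte markers averaged between 12.67 and 12.95 on every array. Markers of another organ (lung and airway, liver, fast skeletal muscle, squamous epithelium, thymus or thyroid) exceeded the median array by over 2 log2 units, as the mean of a list, on 40 of the 99 arrays. These were 11 of 30 in BXD, 6 of 15 in AXB, 5 of 13 in BXA, 8 of 11 in BXH, 9 of 28 in the classical strains, and the CAST/EiJ array. Brown fat markers were not part of this count. Their mean ran from 6.68 on a BXD array to 10.30 on a BXH array. The median array stood at 7.14 in BXD, 7.92 in AXB and 6.89 in BXA for these markers. Fits below that leave out arrays with other-organ markers were therefore not screened for brown fat. The part of brown fat in the levels of the pathway genes was not tested. The 3′ Gapdh control minus its 5′ control, a reading of RNA integrity, averaged −0.22 ± 0.08 (SD, n = 30) in BXD and −0.31 ± 0.08 (SD, n = 28) in AXB and BXA together.

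Bcat2 had the largest strain differences of the 7 genes. The classical strains fell into a lower and a higher set. C3H/HeJ stood at 8.27, I/LnJ at 8.35, DBA/2J at 8.58, 129X1/SvJ at 8.60 and NZW/LacJ at 8.94. The other 23 strains lay between 4.53 in SEA/GnJ and 6.33 in C57L/J, with a median of 5.65. No classical strain lay in the 1.94 log2 units between C57L/J and C3H/HeJ, a 3.83-fold step. Only 109 of the 13398 probe sets tested had a wider gap between neighbouring strains, and the SD of Bcat2 over the 28 strains (1.30) was at percentile 99.4 of those probe sets. The 23 lower strains varied among themselves. A/J at 4.59, BALB/cJ at 4.65, RIIIS/J at 4.82, NON/ShiLtJ at 4.84, CE/J at 4.89 and LG/J at 4.94 were near the bottom. C57BL/6J at 5.92 and KK/HlJ at 6.12 were near the top of that set. CBA/J, at 5.45, was in the lower set.

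The reference sequence around the annotated starts of Bcat2 is shown because Bcat2 carries the widest differences. It comes from the RefSeq mouse assembly GRCm38.p6, which represents C57BL/6J, a strain of the lower set. Each window runs from 250 bases before to 50 bases after an annotated start. The windows are chr7:45569903-45570202 and chr7:45571029-45571328, both on the plus strand.
Bcat2 first start: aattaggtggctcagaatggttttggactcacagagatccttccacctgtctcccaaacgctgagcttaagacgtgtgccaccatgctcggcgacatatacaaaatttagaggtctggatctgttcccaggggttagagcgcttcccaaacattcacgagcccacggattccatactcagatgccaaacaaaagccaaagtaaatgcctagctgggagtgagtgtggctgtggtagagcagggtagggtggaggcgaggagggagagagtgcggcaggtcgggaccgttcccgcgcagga
Bcat2 second start: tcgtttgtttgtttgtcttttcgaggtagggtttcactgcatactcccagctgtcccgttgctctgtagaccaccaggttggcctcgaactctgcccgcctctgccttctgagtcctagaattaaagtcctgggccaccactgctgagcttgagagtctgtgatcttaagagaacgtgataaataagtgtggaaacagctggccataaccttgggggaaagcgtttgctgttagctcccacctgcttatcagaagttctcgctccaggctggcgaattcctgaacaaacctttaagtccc
Both were searched on both strands for 6 motifs: the CCAAT box (CCAAT), the TATA box (TATAAA), the E-box (CACGTG), the GC box (GGGCGG), the estrogen-related receptor element (AAGGTCA) and the NRF1 core (TGCGCA). None of these letter strings was in either window, so no base is in capitals. Over 32817 such windows the shares holding each were 37.4% for CCAAT, 13.6% for TATAAA, 7.15% for CACGTG, 35.6% for GGGCGG, 4.72% for AAGGTCA and 7.75% for TGCGCA. The deposited values carry no strain genotypes, so which bases differ between the strains was not analysed here.

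**Figure D1:**
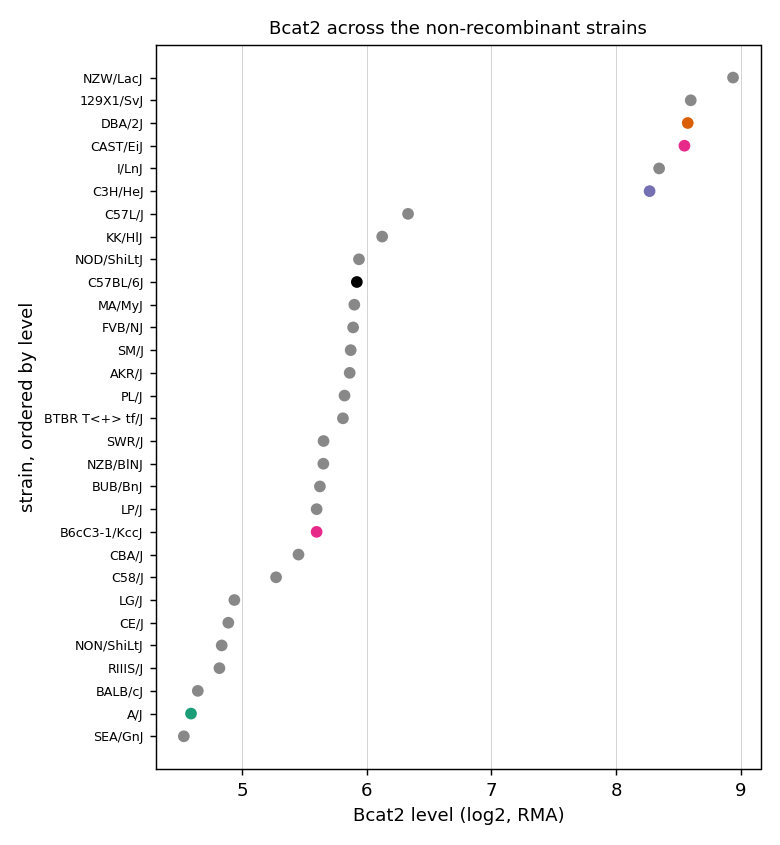
Strains on the vertical axis, ordered by Bcat2 log2 expression level on the horizontal axis, 1 point per array. Coloured points are the 4 parents of the panels (C57BL/6J black, DBA/2J orange, A/J green, C3H/HeJ purple) and, in pink, CAST/EiJ and B6cC3-1/KccJ. The 5 highest classical strains sit at 8.27 to 8.94 and the other 23 at 4.53 to 6.33.

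The panels with a parent in the higher set, BXD and BXH, held families in both sets. In BXD, whose parents stood at 5.92 (C57BL/6J) and 8.58 (DBA/2J), 20 families lay between 5.04 and 6.40 with a median of 5.99. The other 9 lay between 8.44 and 9.02 with a median of 8.80. No BXD family fell in the 2.04 log2 units between these sets, a 4.11-fold step, which 84 of 13398 probe sets exceeded. The lowest of the 9 was BXD12 and the highest BXD32.

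BXH, with C3H/HeJ at 8.27 as its other parent, also split. BXH8 stood at 5.80, BXH22 at 5.93, BXH7 at 6.18 and BXH9 at 6.26, while the other 7 families ranged from 8.33 (BXH19) to 8.88 (BXH10). The gap of 2.07 log2 units is 4.20-fold.

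AXB and BXA, whose parents were at 5.92 and 4.59 (A/J), had no family in the higher set. Their 26 families ran from 3.84 in BXA2 to 6.57 in BXA7, with a median of 5.06 and an SD of 0.69. The widest gap, 0.47, separated BXA7 from the next family. Of the 26, 10 lay above the parental midpoint of 5.26, 7 below both parents and 3 above both.

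Arrays of near-isogenic strains gave close Bcat2 values. AXB19a/PgnJ read 6.14, AXB19/PgnJ 5.91 and AXB19b/PgnJ 6.03, and the BXD24 pair read 5.98 and 6.06. Their ranges of 0.24 and 0.08 are small beside the step of about 2 units. CAST/EiJ, a wild-derived strain, stood at 8.55, above 25 of the 28 classical strains, and B6cC3-1/KccJ stood at 5.60. The CAST/EiJ array carried markers of other organs, with fast skeletal muscle at 9.32, and their part in its Bcat2 value was not tested. Since Bcat2 has 1 probe set, whether another stretch of its transcript gives the same levels could not be examined. Strain variants under its probes were not analysed here, so a difference in transcript level and one in binding to the probes cannot be told apart, for the step between the sets as well.

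**Figure D2:**
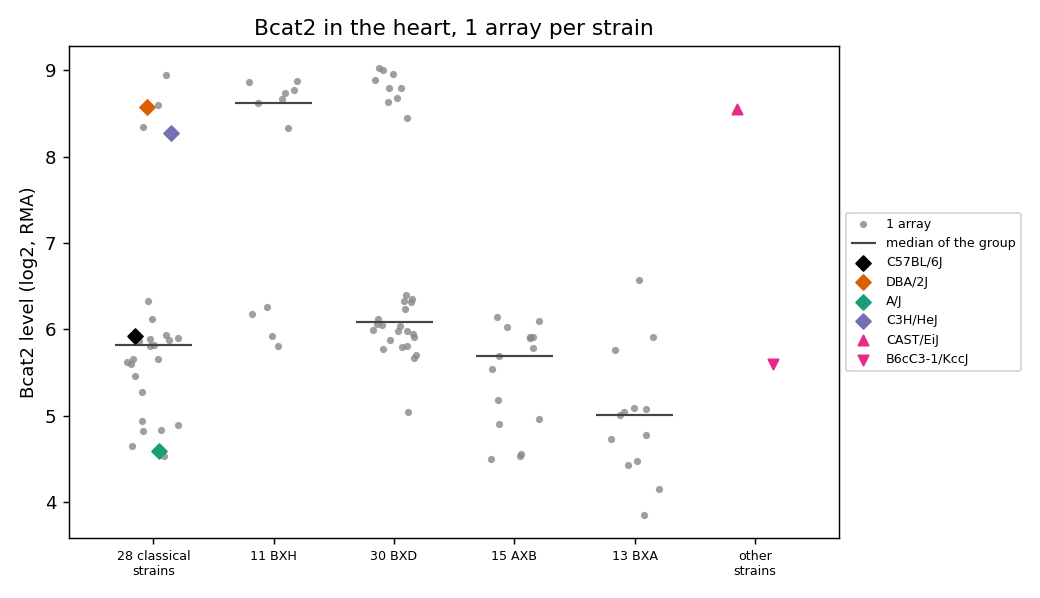
Bcat2 log2 expression level (vertical axis) by group, 1 grey point per array, with a line at each group's median, diamonds for the 4 parents and triangles for CAST/EiJ and B6cC3-1/KccJ. BXD and BXH families fall into a lower set (5.04 to 6.40 and 5.80 to 6.26) and a higher set (8.44 to 9.02 and 8.33 to 8.88), while AXB and BXA families range from 3.84 to 6.57.

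Families of BXD and of AXB with BXA were compared first, since these panels share the C57BL/6J parent and the numbers in their sample titles interleave. Bcat2, Bckdk, Bckdhb and Pccb passed the test. The first 2 were higher in BXD and the last 2 lower. Mean Bcat2 was 6.85 in BXD (n = 29) and 5.17 in AXB and BXA (n = 26), a difference of 1.68 (SE 0.29, 95% interval 1.10 to 2.25), or 3.19-fold, with a limma adjusted p of 3.42e-05. A permutation test of the means gave p = 1e-05, the smallest that 100000 resamples can give. The 9 higher BXD families lay above every AXB and BXA family. The other 20 overlapped them, with a median of 5.99 against 5.06, and 12 of the 26 AXB and BXA families lay below every BXD family. Among all 13398 probe sets 14.3% were called in this comparison, 7.52% higher and 6.78% lower in BXD, against 4 of the 7 genes, 2 in each direction. The members' median absolute difference was 0.15, and that of all probe sets 0.07.

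The called genes of the ketoacid dehydrogenase step moved in opposite directions. Bckdhb, the beta subunit of the decarboxylase, was lower in BXD: its families ran from 8.04 through a median of 8.37 to 8.97, against 8.17, 8.63 and 8.92 in AXB and BXA. The ranges overlapped almost fully, and the means of 8.38 and 8.62 differed by −0.24 (SE 0.05, limma adjusted p = 0.000997). Bckdk, the kinase that inhibits the complex, was higher in BXD: its families ran from 7.73 through 8.01 to 8.17, against 7.63, 7.81 and 8.16. Its means differed by 0.15 (SE 0.04, limma adjusted p = 0.00907). Bckdha, the alpha subunit that the kinase phosphorylates, missed the threshold at 0.10 (SE 0.04, limma adjusted p = 0.0992), as did Dbt, the acyltransferase core, at −0.13 (SE 0.06, limma adjusted p = 0.154).

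For propionyl-CoA carboxylase the subunits differed in outcome. Pccb was lower in BXD, with families from 7.32 through 7.78 to 8.14, against 7.62, 7.98 and 8.20. The means of 7.76 and 7.98 differed by −0.21 (SE 0.05, limma adjusted p = 0.00187). Pcca differed by −0.03 (SE 0.04, 95% interval −0.11 to 0.06, limma adjusted p = 0.709). Whether Pcca and Pccb differ in their response was not tested.

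**Figure D3:**
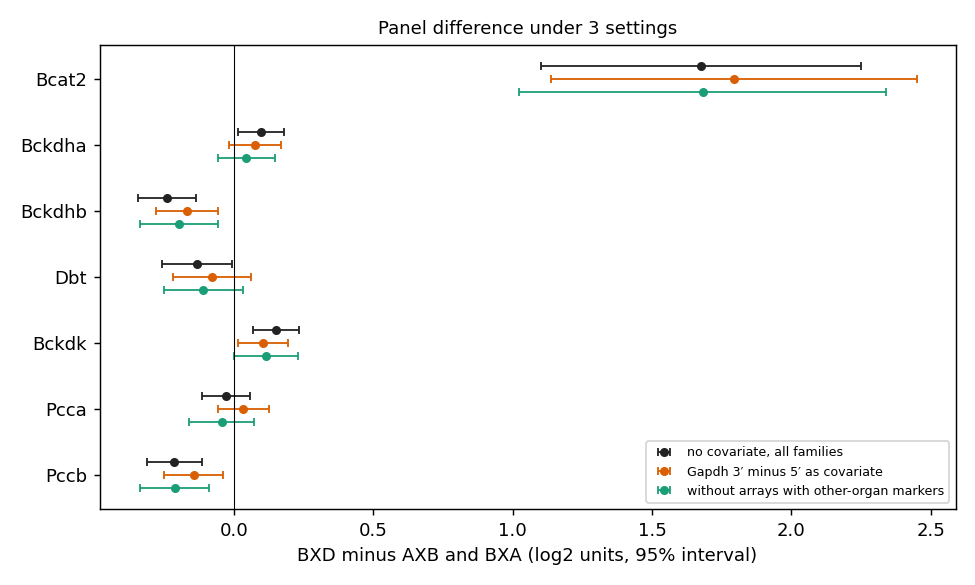
Difference of BXD minus AXB and BXA in log2 expression level for the 7 genes, with points for the limma estimate and bars for its 95% interval. Black points use all families (Bcat2 1.68, Bckdk 0.15, Bckdhb −0.24, Pccb −0.21), orange points add the Gapdh covariate, and green points leave out arrays with other-organ markers.

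The Gapdh control difference moved with this comparison, and so did the calls of Bckdhb, Pccb and Bckdk. With it as a covariate Bckdhb stood at −0.17 (limma adjusted p = 0.0659), Pccb at −0.14 (limma adjusted p = 0.104) and Bckdk at 0.10 (limma adjusted p = 0.193), while Bcat2 stood at 1.79 (limma adjusted p = 0.000245). Without the arrays that carried markers of another organ, 18 BXD and 16 AXB and BXA families remained. Bcat2 then differed by 1.68 (limma adjusted p = 0.00125) and Pccb by −0.21 (limma adjusted p = 0.0314), and Bckdhb at −0.20 (limma adjusted p = 0.0774) and Bckdk at 0.12 (limma adjusted p = 0.211) missed the threshold.

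The sequences at the starts of Bckdhb and Pccb are shown because both genes were lower in BXD and they lie on the same chromosome, with 99 protein-coding genes between them. The windows are chr9:83924887-83925186 on the plus strand and chr9:101034835-101035134 on the minus strand of GRCm38.p6, from RefSeq, written 5′ to 3′ along the gene. Capitals mark matches to the 6 motifs.
Bckdhb first start: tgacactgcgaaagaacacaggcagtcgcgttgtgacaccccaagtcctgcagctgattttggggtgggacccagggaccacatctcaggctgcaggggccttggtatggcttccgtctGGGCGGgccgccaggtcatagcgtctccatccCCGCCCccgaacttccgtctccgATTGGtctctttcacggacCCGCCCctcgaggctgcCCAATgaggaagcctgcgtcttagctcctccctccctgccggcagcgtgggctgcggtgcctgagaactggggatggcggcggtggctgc
Pccb: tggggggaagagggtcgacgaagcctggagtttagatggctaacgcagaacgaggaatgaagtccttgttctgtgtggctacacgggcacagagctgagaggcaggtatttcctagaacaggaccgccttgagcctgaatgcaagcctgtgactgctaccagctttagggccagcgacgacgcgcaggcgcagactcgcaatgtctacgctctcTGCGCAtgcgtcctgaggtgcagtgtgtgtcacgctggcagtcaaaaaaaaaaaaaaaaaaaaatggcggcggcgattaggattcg
The first Bckdhb window held 2 CCAAT boxes, 1 of them as the reverse complement. It also held 3 GC boxes, 2 of them as the reverse complement, and none of the matches overlapped. A second Bckdhb start, whose window is not shown, held 1 CCAAT box as the reverse complement and no GC box. Pccb held 1 NRF1 core, 36 bases before the start, and no CCAAT box or GC box. The shares of all windows given above are the background for these matches. Of the 8 genes, 7 had such windows, and Dbt had none here.

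Panel differences were set beside those of the parents. DBA/2J minus A/J and BXD minus AXB and BXA had the same sign for 7 of 7 genes, as had C3H/HeJ minus A/J and BXH minus AXB and BXA. Both counts use the same A/J array and the same AXB and BXA families, so they are not independent. The BXH minus AXB and BXA differences of Bckdha (0.002) and Pccb (−0.003) were too small for their sign to count. The share of all probe sets with the same sign was not determined. For C3H/HeJ minus DBA/2J and BXH minus BXD the sign was the same for 5 of 7. The exceptions were Bcat2 (parents −0.31, panels 0.88) and Bckdha (parents 0.01, panels −0.10), neither of which passed the test between these panels. For Bckdhb, DBA/2J stood at 8.27 and A/J at 8.76, with C57BL/6J between at 8.44. For Pccb they stood at 7.73 and 8.15, with C57BL/6J at 8.12. For Bckdk they stood at 8.11 and 7.85, with C57BL/6J at 7.83. Each parental value is 1 array, so these differences have no error of their own.

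The reciprocal panels AXB and BXA did not differ at the threshold for any of the 7 genes (13 families each). In the fit 0% of probe sets were called with limma, and 1370 of 13398 had an unadjusted p under 0.05. Bcat2 averaged 5.35 ± 0.60 (SD, n = 13) in AXB and 4.99 ± 0.74 (SD, n = 13) in BXA, a difference of 0.36 (SE 0.25, limma adjusted p = 0.633). The other 6 genes differed by −0.12 to 0.00, and 0 of the 7 had an unadjusted p under 0.05.

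BXH families were compared with the AXB and BXA families next (11 against 26). The title numbers run from 3 to 394 in BXH and from 481 to 683 in AXB and BXA, so a difference of panel and one of title number cannot be told apart. Of all probe sets 5.61% were called, 2.64% higher and 2.96% lower in BXH, and of the 7 genes Bcat2 (higher) and Dbt (lower). Bcat2 was higher by 2.56 (SE 0.32, 95% interval 1.91 to 3.20), 5.89-fold, with a limma adjusted p of 6.41e-06 and a permutation p of 1e-05. Of the 11 BXH families 7 lay above every AXB and BXA family, and the lowest, BXH8 at 5.80, lay above 20 of the 26.

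Dbt was lower in BXH. Its families ran from 7.23 through 7.56 to 7.98, against 7.36, 7.84 and 8.28 in AXB and BXA, so the groups overlapped. The difference was −0.29 (SE 0.09, limma adjusted p = 0.0448), and C3H/HeJ at 7.25 was also lower than A/J at 7.72 and C57BL/6J at 8.04. That call was lost, with a difference of similar size, when each array was its own sample (−0.28, limma adjusted p = 0.0774) and when no filter was applied (−0.29, limma adjusted p = 0.0635). It was also lost once arrays with other-organ markers were left out (−0.29, limma adjusted p = 0.562), which left 3 BXH families. The other 5 genes did not pass, Pcca coming nearest at −0.14 (limma adjusted p = 0.0820).

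BXH and BXD families (11 against 29) did not differ at the threshold for any of the 7 genes, where 9.9% of all probe sets were called. An unadjusted limma p under 0.05 was found for 3 of the 7 genes and for 3374 of all 13398 probe sets. Bcat2 was in its higher set in 7 of 11 BXH and 9 of 29 BXD families. The difference in means was 0.88 (SE 0.46, 95% interval −0.05 to 1.81), with a limma adjusted p of 0.226 and a permutation p of 0.0801. It stood at 2.12 without arrays that carried other-organ markers (3 against 18 families, limma adjusted p = 0.118) and at 0.50 with the Gapdh covariate (limma adjusted p = 0.615). Pccb differed by 0.21 (SE 0.07, limma adjusted p = 0.0555). These panels also stand apart in their title numbers. Comparisons that share BXD or AXB and BXA families are not independent of each other.

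Against the 28 classical strains the 11 BXH families gave no call among the 7 genes, where 0.179% of all probe sets were called. An unadjusted limma p under 0.05 was found for 1 of the 7 genes and for 1403 of all 13398 probe sets. Bcat2 was 1.70 higher in BXH (SE 0.45, 95% interval 0.80 to 2.61), with a limma adjusted p of 0.0858. A permutation test of that single difference gave p = 0.00078, unadjusted. Without arrays that carried other-organ markers, 3 BXH families and 19 classical strains differed by 2.98 (limma adjusted p = 0.127). The other 6 differences ran from −0.05 to 0.11.

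The spread between families was compared in BXD and in AXB with BXA, because a gene whose parents differ in only one cross may vary more in that cross. None of the 7 genes passed, with 1.46% of all probe sets called. An unadjusted limma p under 0.05 was found for 1 of the 7 genes, Bckdk (p = 0.0125), and for 1144 of all 13398 probe sets. Bckdk varied less in BXD, with a mean absolute deviation from the panel median of 0.09, against 0.15 in AXB and BXA. For Bcat2 the mean absolute deviation from the panel median was 1.01 in BXD and 0.56 in AXB and BXA, a difference of 0.45 (limma adjusted p = 0.625). Taken from the panel mean the difference was 0.64 (limma adjusted p = 0.000623), so this result depends on the centre that is used for a panel with separate levels.

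**Figure D4:**
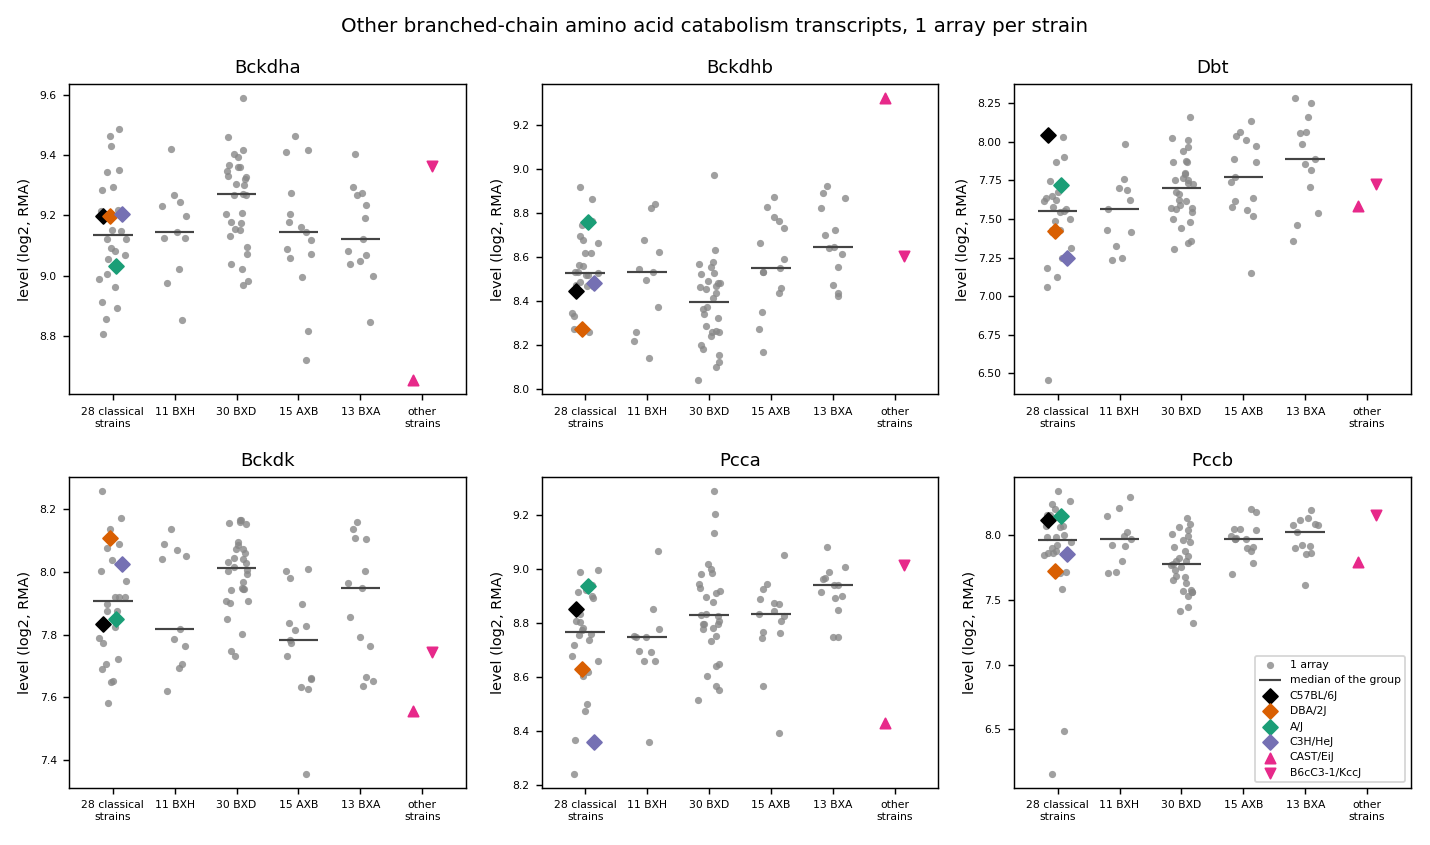
Log2 expression level (vertical axis) of Bckdha, Bckdhb, Dbt, Bckdk, Pcca and Pccb by group, 1 grey point per array, with a line at each median, diamonds for the 4 parents and triangles for CAST/EiJ and B6cC3-1/KccJ. The panels overlap for each gene, and LG/J (6.16) and NZW/LacJ (6.49) stand below the other 26 classical strains in Pccb.

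Outside Bcat2 the strain differences were smaller. Pccb held the next widest gap in the classical strains. LG/J stood at 6.16 and NZW/LacJ at 6.49, while the other 26 strains lay between 7.59 and 8.34, and 318 of 13398 probe sets had a wider gap than this 1.10. Neither strain is a parent of the panels, and no panel family was below 7.32. Strain variants under the Pccb probes were not analysed here, so for LG/J and NZW/LacJ transcript level and probe binding cannot be told apart. Dbt was lowest in CBA/J at 6.46, with the other 27 strains between 7.06 and 8.04, C57BL/6J being the highest. Bckdha ran from 8.81 to 9.49, Bckdhb from 8.26 to 8.92, Bckdk from 7.58 to 8.26 and Pcca from 8.24 to 9.00 in the classical strains. The SDs of these 4 genes (0.17 to 0.20) were below the median SD of the tested probe sets, 0.23.

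CAST/EiJ lay outside the classical range in 3 of the 7 genes. Its Bckdhb of 9.32 was 0.40 above the highest classical strain, its Bckdha of 8.65 was below all 28, and its Bckdk of 7.56 was just below all 28. Of all tested probe sets 25.8% lay outside the classical range on that array, which carried markers of other organs. Its fast skeletal muscle markers averaged 9.32, its liver markers 10.15 and its lung and airway markers 9.04, and their part in these values was not tested. Strain variants under the probes of these genes were not analysed here either, so transcript level and probe binding cannot be told apart. B6cC3-1/KccJ was outside the range for Pcca alone, at 9.01, where 4.61% of probe sets were outside it.

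For these 6 genes, ranges between arrays of near-isogenic strains were set beside the size of the difference of BXD from AXB and BXA. In AXB19 the range exceeded that difference for every gene but Pccb. In BXD24 it did so for Bckdha, Dbt and Pccb, and was smaller for Bckdhb, Bckdk and Pcca. A range of single arrays and a difference of panel means are unlike measures. The 3 AXB19 arrays spanned 0.74 in Bckdha, 0.91 in Dbt, 0.55 in Pcca, 0.48 in Bckdk, 0.47 in Bckdhb and 0.16 in Pccb. AXB19/PgnJ, which carried markers of another organ, gave the lowest value in Bckdha, Dbt, Bckdk, Pcca and Pccb. The BXD24 pair differed by 0.38 in Pccb, 0.26 in Bckdha, 0.25 in Dbt and less than 0.10 in the other 3.

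Levels of the 6 genes other than Bcat2 were set against each other over 94 families after removing group means. Bcat2 was left out because its values form separate levels. The pairs within the dehydrogenase core were weakly related. Bckdha and Bckdhb gave r = 0.10 and rho = 0.11 (permutation p for rho adjusted over 15 pairs = 0.345). Bckdha and Dbt gave r = 0.20 and rho = 0.16 (adjusted permutation p = 0.171), and Bckdhb and Dbt r = 0.19 and rho = 0.21 (adjusted permutation p = 0.0859).

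The closest pairs were others. Bckdha and its kinase gene Bckdk gave r = 0.55 and rho = 0.55 (each with an adjusted permutation p of 7.5e-05), and r = 0.54 without the 2 farthest families. Within groups rho was 0.59 in the classical strains, 0.28 in BXD, 0.63 for AXB with BXA and 0.60 in BXH. Bckdhb and Pcca gave r = 0.56 and rho = 0.52 (each with an adjusted permutation p of 7.5e-05), and r = 0.50 without the 2 farthest. Their rho was 0.48, 0.69, 0.68 and −0.25 in the same groups, so its sign was negative in the 11 BXH families.

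Dbt and Pcca gave r = 0.36 (adjusted permutation p = 0.00285) and rho = 0.42 (adjusted permutation p = 0.0004). Pcca and Pccb, the subunits of one enzyme, gave r = 0.15 (adjusted permutation p = 0.351) and rho = 0.34 (adjusted permutation p = 0.00345). Pearson and Spearman thus disagreed there, and rho was 0.20, 0.52, 0.32 and 0.33 within the groups. Of the 15 pairs 7 had an adjusted p for rho under 0.05. Pairs of other genes were not examined, so no background share can be given. With the Gapdh difference removed Bckdhb with Pccb lost its call (adjusted permutation p = 0.0673) and Bckdha with Pcca gained one (adjusted permutation p = 0.0245). Dbt with Pccb lost its call without arrays that carried other-organ markers (adjusted permutation p = 0.192). Dbt with Bckdk gained one without the 2 farthest families (adjusted permutation p = 0.0473). The kinase and its phosphatase, and Ivd and Mccc1, could not be related, since no probe set was named Ppm1k or Ivd here.

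**Figure D5:**
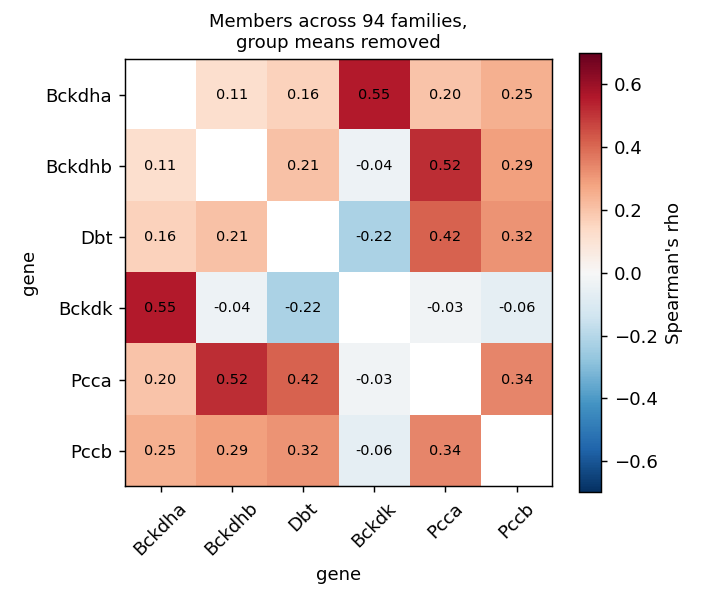
Spearman's rho of each pair of the 6 genes over 94 families after removing group means, printed in each cell and shown by colour from blue (negative) to red (positive). The deepest red cells are Bckdha with Bckdk (0.55) and Bckdhb with Pcca (0.52), while Bckdha with Bckdhb reads 0.11.

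A wider list of 28 other genes of the pathway was read in the same fits. Of these, 21 were named on the array and 20 passed the filter. The brightest probe set stood for each gene, and where a gene has several, others did not always share its call. In BXD against AXB and BXA 2 of the 20 were higher and 4 lower, against 7.52% and 6.78% of all probe sets, and the median absolute difference was 0.07, with 0.07 over all probe sets. Mccc1, a subunit of the leucine pathway's methylcrotonyl-CoA carboxylase, was higher by 0.25 (limma adjusted p = 0.0378), and Mmut, methylmalonyl-CoA mutase, which follows propionyl-CoA carboxylase, by 0.18 (limma adjusted p = 0.0160). Echs1, the enoyl-CoA hydratase, stood at −0.17 (limma adjusted p = 0.00942) and Aldh6a1, the methylmalonate semialdehyde dehydrogenase, stood at −0.15 (limma adjusted p = 0.0375). Hsd17b10 (−0.13) and Acat1 (−0.12), enzymes of isoleucine breakdown, were also lower. With the Gapdh covariate 1 of the 20 was higher and 0 lower, against 5.08% of all probe sets called in that fit. Among the lower and the upper title numbers 0 of the 20 were called (limma, with 7 and 4 at an unadjusted p under 0.05). Of all 13398 probe sets 3138 and 2078 had such a p there.

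Mccc1 families are described by the widest gap between them in AXB with BXA and in BXH. Neither gap was ranked against those of other probe sets, and that of AXB with BXA was narrow beside its range. The AXB and BXA families ran from 8.25 to 9.50, 11 of them at 9.00 or below and 15 at 9.24 or above, with A/J at 8.75 and C57BL/6J at 9.34. In BXH 4 families lay at 8.65 or below and 7 at 9.24 or above (SD 0.47, n = 11), with C3H/HeJ at 8.36. BXD families ran from 9.01 to 9.54, with DBA/2J at 8.95. Mccc1 has 1 probe set, and strain variants under its probes were not analysed here. The mean absolute deviation was 0.11 in BXD and 0.36 in AXB and BXA, a difference of −0.25 (limma adjusted p = 0.0194). That call was lost without arrays that carried other-organ markers. There 0 of the 20 genes were called for the spread (limma, with 3 at an unadjusted p under 0.05, against 1002 of 13398 probe sets).

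In BXH against AXB and BXA 0 of the 20 were higher and 3 lower, against 2.64% and 2.96% of all probe sets. These were Aldh6a1 at −0.23 (limma adjusted p = 0.0105), Hibadh at −0.16 (limma adjusted p = 0.0164) and Hibch at −0.14 (limma adjusted p = 0.0447), all enzymes of valine breakdown. Once arrays with other-organ markers were left out 0 were called (limma, with 1 at an unadjusted p under 0.05, against 1253 of 13398 probe sets). In BXH against BXD only Mmab, a cobalamin adenosyltransferase, was called, at −0.24 (limma adjusted p = 0.0378), against 9.9% of all probe sets. Its other probe sets were not called and had the opposite sign, at 0.06 and 0.02. With no filter 0 of 21 genes were called (limma, with 5 at an unadjusted p under 0.05), against 5.07% of all probe sets. Without arrays that carried other-organ markers 0 of the 20 were called (limma, with 3 at an unadjusted p under 0.05), against 1.13%. With the Gapdh covariate 3 of the 20 were lower and 0 higher. In that fit 5.9% of all probe sets were called, 463 of 13398 lower and 328 higher. AXB against BXA and BXH against the classical strains gave 0 calls (limma, with 2 and 3 at an unadjusted p under 0.05). Of all 13398 probe sets 1370 and 1403 had such a p.

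Genes whose levels followed Bcat2 most closely were ranked by Spearman rho within each cross, among 7512 genes. Here each gene stood by its probe set with the largest absolute rho, not by its brightest. In BXD (29 families) these were Srp14 (0.74), Car11 (0.74), Col4a2 (−0.72), Tmem242 (0.71), Col4a1 (−0.69) and Atp5j (0.69). Car11 lies on the chromosome of Bcat2, with 8 protein-coding genes between. In AXB and BXA (26 families) they were Pih1d1 (−0.80), Tram1 (0.74), Rpl13a (0.72), Ush1c (−0.71), Inpp5j (−0.68) and Gata6 (−0.67). Pih1d1, Rpl13a and Ush1c lie on that chromosome with 27, 30 and 29 protein-coding genes between. The Ush1c families ran from 3.45, below the filter level of 3.59, to 6.15.

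In BXH (11 families) the ranking led with Hnrnpdl (0.96), Gdf10 (0.92), Dmd (0.91), Cbx3 (−0.90), H2-D1 (−0.90) and Pip4k2c (0.89), none on that chromosome. The H2-D1 probe set ran only from 3.06 to 3.62 over these families, near the filter level of 3.59, and Gdf10 from 3.36 to 4.40. With 11 families 1553 genes reached an absolute rho of 0.5, against 178 in BXD. The chromosome holds 7.40% of the 7461 ranked genes with a position, against 1 of the 6 leading genes in BXD, 3 of 6 for AXB with BXA and 0 of 6 in BXH. Families of a cross share stretches of parental chromosome, so genes near each other are not independent. Bckdha and Bckdk lie on the same chromosome too, with 425 and 859 protein-coding genes between them and Bcat2.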

How the data were processed

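Heart RNA was hybridised to Affymetrix HT_MG-430A arrays from oligo-dT primed, biotin-labelled targets, per the labels' protocols. The deposited table holds log2 values, by the authors, of 22416 probe sets (89 are controls), and GCOS and RMA are named in the submitters' processing notes without versions. RMA normalises by quantiles, so a change of all genes at once would not show. Strains were grouped by their names. An age label that rises along the sample order while the protocol gives 16 weeks was not used. Gene symbols came from the platform's annotation (17783 probe sets with 1 symbol, 284 with several, 4349 with none), and 17759 matched RefSeq by Entrez identifier. Those with a mean above the 40th percentile (3.59) were tested, 13398 in all. Each comparison was a limma fit (version 3.58.1, R 4.3.3) of only its own groups, without covariates, and calls needed an adjusted p (Benjamini-Hochberg, over all tested probe sets) under 0.05. The fit was tested on simulated data. Relations and single differences used two-sided permutation tests with 100000 resamples, with values permuted within groups for relations. Named genes were the 8 listed, up to 6 called pathway genes per comparison by size, and the 6 genes nearest to Bcat2 in each cross with a parental difference of at least 1. The members and lists were chosen with earlier results of these data known. Motifs were matched by letters. The number of arrays limits the precision.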

Additional observations from a re-analysis of the deposited data

How the results depend on the processing

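The difference of Bcat2 between BXD and AXB with BXA kept its direction and its call under all 8 alternatives (1.59 to 1.79, limma adjusted p 3.36e-05 to 0.0194) and ran from 1.60 to 1.74 when each family was left out in turn. In BXH against AXB and BXA it kept both under 6 alternatives (2.50 to 3.80). Bckdhb was lost under 4 of 8 alternatives, and Pccb and Bckdk under 3 of 8. Among the lower title numbers (16 against 13) Bcat2 stood at 1.62 and among the upper ones (14 against 14) at 1.60. Counts of called probe sets moved more. In BXD against AXB and BXA, 1916 became 1099 at gene level, 832 without arrays that carried other-organ markers, 681 with the Gapdh covariate, and 783 and 284 among the lower and the upper title numbers. In BXH against AXB and BXA, 751 became 490 at gene level and 36 without those arrays. In BXH against BXD, 1327 became 799, 151 and, with the Gapdh covariate, 791. In BXH against the classical strains, 24 became 0 without those arrays (764 at an unadjusted p under 0.05, limma), 39 with the Gapdh covariate, 4 with the title number as a covariate and 3 within overlapping title numbers. For the spread, 195 became 43 without those arrays and 330 around the panel mean. Fewer arrays or probe sets enter some of these fits, and the cause of the other shifts was not tested. No called difference reversed. The permutation tests of Bcat2 and the use of all 15 pairs were chosen after seeing the data. Scanner files were not analysed here, so signal over background is unknown. No paired analysis was possible because the labels give no replicate numbers shared between groups.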
